A study of Mus musculus with 26 samples.

Results

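The genes described here are the collagens of the mouse and 9 genes that make or accompany the matrix of the leptomeninges, the thin membranes that cover the brain. They were chosen by name: every gene whose symbol in the platform annotation has the form Col, number, a, number, together with Fmod, Mgp, Dcn, Lum, Ogn, Bgn, Igf2, Igfbp2 and Slc6a13. There were 51 of them, 42 collagens and the 9 others, among 18194 genes that had a probe set with a single symbol. Each gene was read on its brightest probe set, judged by the mean of the 26 arrays. These genes have 101 probe sets, and the other 50 are given for the genes that passed the test between regions and for those with another probe set that did. A gene was tested if that mean reached the 30th percentile of all probe sets, a log2 value of 4.33, which left 48 of the 51 genes and 14941 genes in all. Col17a1, Col24a1 and Col6a5 were below it on average, with medians between 2.63 and 2.90 in either region.

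The arrays came from entorhinal cortex and hippocampus, 13 arrays each, of aged mice examined 4 weeks after lentivirus had been delivered to the entorhinal cortex. Within each region there were 4 arrays of APP transgenic mice that had received BDNF (brain-derived neurotrophic factor) virus, 4 of APP transgenic mice that had received GFP virus, 2 of non-transgenic mice that had received GFP virus and 3 of non-transgenic mice with a sham lesion. Non-transgenic mice with BDNF virus and transgenic sham mice are not among the groups, so genotype and virus are only partly separable. APP is the human Alzheimer's disease gene for the amyloid precursor protein, and the promoter of the transgene, the age in months and the sex of the mice are not stated by the labels. The virus went to the entorhinal cortex, so the hippocampal arrays come from tissue that was not the site of delivery. The labels call the replicates biological without saying which entorhinal and hippocampal arrays came from one mouse.

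Collagens are proteins whose chains wind into triple helices. Fibrillar collagens form the cables of connective tissue, type IV collagen forms the mesh of the basement membrane under blood vessels, and type VI, VIII and X collagens form filaments or lattices, while FACIT collagens sit on the surface of fibrils and transmembrane collagens stay in the cell membrane. Small leucine-rich proteoglycans such as decorin (Dcn), lumican (Lum) and fibromodulin (Fmod) bind collagen fibrils and govern their thickness. In the brain, fibrillar collagens and these proteoglycans are made mainly by fibroblasts of the meninges and of large vessels, while type IV collagen lines every capillary. In whole tissue, fewer cells of a type and less RNA per cell cannot be told apart.

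Promoter windows, from 250 bases before to 50 bases after the start of the gene, were taken from RefSeq (GRCm38.p6) and matched 39 of the 51 genes. Lum, Dcn and Mgp are named only. The first 3 windows are those of Fmod, Col1a2 and Ogn, which were higher in entorhinal cortex. Fmod and Ogn are small leucine-rich proteoglycan genes, and Col1a2 is a fibrillar collagen gene. Capitals mark 3 common promoter motifs on either strand: the TATA box (searched as TATAAA), the CCAAT box (searched as CCAAT) and the GC box (searched as GGGCGG). The Fmod window is chr1:134037004-134037303, that of Col1a2 is chr6:4505368-4505667 and that of Ogn is chr13:49607765-49608064, all on the plus strand.
Fmod: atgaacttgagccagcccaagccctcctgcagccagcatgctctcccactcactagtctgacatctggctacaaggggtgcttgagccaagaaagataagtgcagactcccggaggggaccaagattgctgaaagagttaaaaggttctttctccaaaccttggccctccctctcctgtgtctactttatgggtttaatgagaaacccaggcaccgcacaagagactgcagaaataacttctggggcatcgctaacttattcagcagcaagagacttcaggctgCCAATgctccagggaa
Col1a2: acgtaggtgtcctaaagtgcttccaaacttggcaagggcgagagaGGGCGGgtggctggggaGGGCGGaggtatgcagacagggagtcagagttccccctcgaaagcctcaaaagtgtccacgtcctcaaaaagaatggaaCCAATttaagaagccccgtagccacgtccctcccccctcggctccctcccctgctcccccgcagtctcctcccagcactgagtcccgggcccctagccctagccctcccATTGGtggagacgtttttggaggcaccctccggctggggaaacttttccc
Ogn: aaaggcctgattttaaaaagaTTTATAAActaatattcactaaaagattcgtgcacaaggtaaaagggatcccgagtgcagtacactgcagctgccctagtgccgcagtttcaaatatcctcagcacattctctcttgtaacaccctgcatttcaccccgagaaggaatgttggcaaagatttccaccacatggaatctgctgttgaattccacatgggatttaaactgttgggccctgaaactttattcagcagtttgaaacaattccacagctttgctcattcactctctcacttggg
The Fmod window holds 1 CCAAT and neither of the other motifs, the Col1a2 window holds 2 CCAAT and 2 GGGCGG, and the Ogn window holds TATAAA on both strands at an overlapping position far upstream of the start. Over all 32851 windows of this length, 13.6% held TATAAA, 37.4% held CCAAT and 35.7% held GGGCGG. Among the 48 windows of the genes described here, some genes having more than 1, the shares were 12.5%, 35.4% and 56.3% in the same order. A match is a description of letters and was not tested for a function.

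The other pair of windows belongs to Col4a1 and Col4a2, the genes of the main chains of vascular basement membrane collagen, which stand head to head. The Col4a1 window is chr8:11312777-11313076 on the minus strand and the Col4a2 window is chr8:11312555-11312854 on the plus strand. They are shown because the genes start close together in opposite directions, so that their windows overlap. Capitals mark the 78 bases the windows share, written on opposite strands.
Col4a1: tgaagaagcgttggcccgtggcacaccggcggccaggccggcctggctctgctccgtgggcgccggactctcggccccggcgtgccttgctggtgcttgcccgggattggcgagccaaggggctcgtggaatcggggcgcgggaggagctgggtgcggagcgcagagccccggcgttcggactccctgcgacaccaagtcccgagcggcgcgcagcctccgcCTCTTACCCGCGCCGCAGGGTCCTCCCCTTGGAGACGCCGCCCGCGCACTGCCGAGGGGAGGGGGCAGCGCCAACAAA
Col4a2: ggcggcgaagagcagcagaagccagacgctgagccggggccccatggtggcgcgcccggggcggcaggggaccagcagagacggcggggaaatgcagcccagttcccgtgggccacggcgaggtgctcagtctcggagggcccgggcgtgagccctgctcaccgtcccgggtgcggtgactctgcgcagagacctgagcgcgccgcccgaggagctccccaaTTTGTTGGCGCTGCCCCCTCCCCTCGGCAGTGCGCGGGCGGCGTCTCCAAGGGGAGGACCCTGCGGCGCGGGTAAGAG
The values of these neighbouring genes are set side by side with those of other neighbours further on.

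The dissections were checked first. All 7 measured hippocampal marker genes, such as Prox1 of the dentate gyrus, were lower in entorhinal cortex, and 4 of 7 measured cortical markers were higher, 1 was lower and 2 did not pass the test. The defining choroid plexus gene Ttr (transthyretin) stood at 13.75 on hippocampal sham array 1, and the mean of 13 measured choroid plexus genes was 7.69 on that array, against 4.75 to 4.92 on the entorhinal arrays and 5.03 to 5.24 on the other hippocampal arrays. Meningeal genes varied among the entorhinal arrays, as described with the arrays further on. Myelin genes were lowest in entorhinal cortex on BDNF array 3 (mean 7.21) and on non-transgenic GFP array 2 (mean 7.42). Xist, the RNA of the inactive X chromosome, was between 5.38 and 6.01 on 8 of the 16 transgenic arrays and between 10.38 and 11.01 on the other 8 and on all 10 non-transgenic arrays, so that the transgenic groups are mixed in it and the non-transgenic groups are not.

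Many matrix genes differed between the regions. In entorhinal cortex, 21 of the 48 tested genes were higher than in hippocampus and 10 were lower (limma, Benjamini-Hochberg adjusted p below 0.05, mean of the differences in the 4 conditions), while 51.8% of all genes tested passed in either direction, 20.6% higher and 31.3% lower. The counts are to be read against that background, in which most genes passed. The median absolute difference was 0.35 over the 48 genes, against 0.14 over all genes tested. All 21 higher genes were higher in each of the 4 conditions taken alone, and all 10 lower genes were lower in each of them. Of the collagens, 14 were higher and 9 were lower. Groups without any overlap between the 13 entorhinal and the 13 hippocampal arrays were seen for Fmod, Col23a1, Col1a2 and Col6a2, all higher, where 4.00% of all genes tested were higher without overlap. In either direction these were 4 of the 48 genes, where 10.6% of all genes tested did not overlap.

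**Figure D1:**
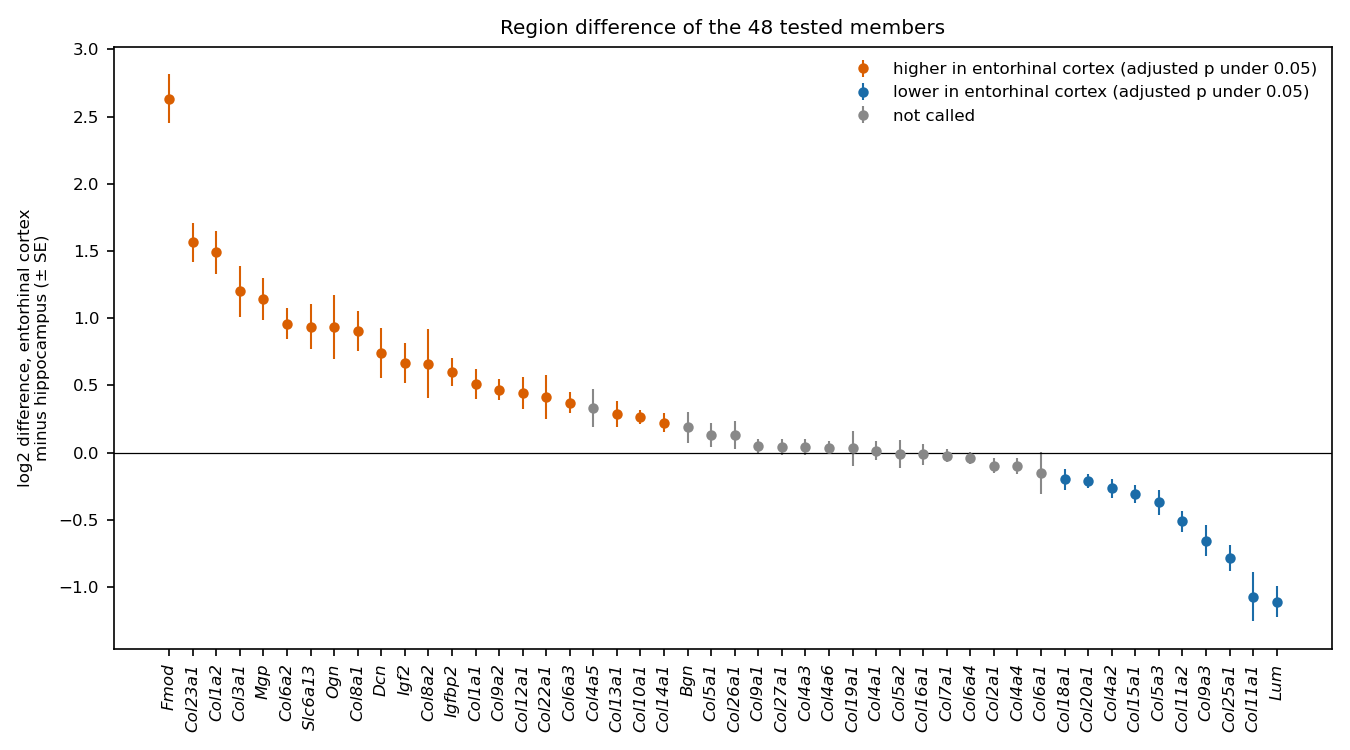
Log2 difference between entorhinal cortex and hippocampus (y axis, entorhinal cortex minus hippocampus, with its standard error) for each of the 48 tested genes (x axis, ordered by the difference), coloured by whether the adjusted p was below 0.05. Fmod stands at 2.63 at the left end, Lum at −1.11 and Col11a1 at −1.07 at the right end, and 17 genes in grey were not called, the highest of them Col4a5 at 0.33.

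Of the small leucine-rich proteoglycans, 3 of 5 were higher in entorhinal cortex, 1 was lower and 1 did not pass. Fmod, which binds collagen fibrils and limits their thickness, ranged from 8.96 to 10.75 with a median of 9.89 on the entorhinal arrays, against 6.48 to 7.66 with a median of 7.35 on the hippocampal arrays. The lowest entorhinal array lay above the highest hippocampal array, and the difference was 2.63 ± 0.18 on the log2 scale (SE, limma adjusted p = 6.47e-11), or 6.20-fold. The 5 other Fmod probe sets gave differences between 1.73 and 2.03, each with an adjusted p below 0.05. Dcn, the proteoglycan that decorates type I collagen, ranged from 10.62 to 11.74 (median 11.13) in entorhinal cortex, against 8.87 to 10.92 (median 10.44) in hippocampus, a difference of 0.74 ± 0.18 (limma adjusted p = 0.00185). Its ranges overlapped, and its dim second probe set gave 0.04. Ogn (osteoglycin or mimecan) ranged from 7.13 to 9.38 (median 8.53) in entorhinal cortex, against 5.93 to 8.06 (median 7.49) in hippocampus, a difference of 0.94 ± 0.24 (limma adjusted p = 0.00223), and its other probe set gave 0.91.

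Lum went the other way. Lumican, a relative of decorin and fibromodulin that also binds fibrils, ranged from 6.12 to 6.70 (median 6.48) on the entorhinal arrays, against 6.69 to 8.11 (median 7.57) on the hippocampal arrays. The ranges touched at a single hippocampal array, and the difference was −1.11 ± 0.12 (limma adjusted p = 4.96e-08), between −1.22 and −0.92 in the 4 conditions. Bgn (biglycan), the nearest relative of decorin, ranged from 7.27 to 8.50 (median 7.94) in entorhinal cortex, against 7.23 to 8.24 (median 7.69) in hippocampus. Its difference of 0.19 ± 0.12 did not pass the test (limma adjusted p = 0.191), and its 2 other probe sets gave 0.20 and 0.12.

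**Figure D2:**
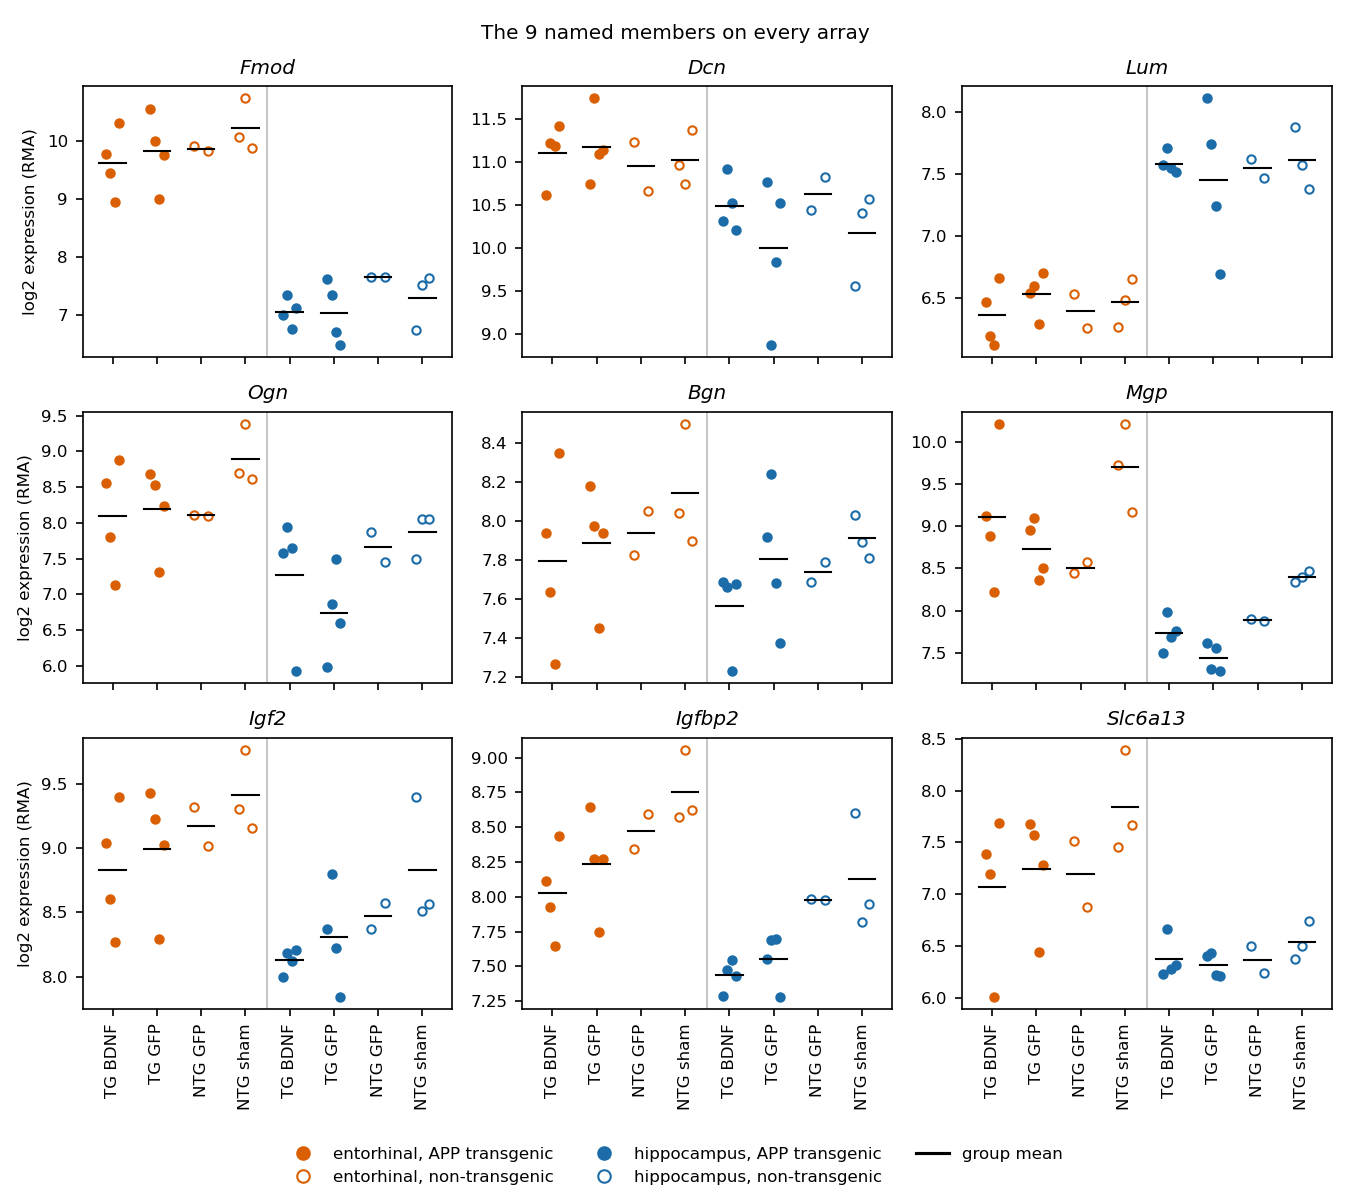
Log2 expression (y axis) of the 9 named genes on every array, with entorhinal arrays in orange left of the line and hippocampal arrays in blue right of it, filled for APP transgenic (TG) and open for non-transgenic (NTG) mice, by group from left to right. Black bars are group means. Fmod has its entorhinal arrays at or above 8.96 and its hippocampal arrays at or below 7.66. Lum is higher in hippocampus, but its highest entorhinal array (6.70) just exceeds its lowest hippocampal array (6.69). The 3 hippocampal sham arrays of Mgp lie at 8.34 to 8.47 above the other 10.

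All 4 of the secreted and transport genes were higher in entorhinal cortex. Mgp (matrix Gla protein), an inhibitor of calcification of soft tissue, ranged from 8.22 to 10.21 (median 8.95), against 7.29 to 8.47 (median 7.76) in hippocampus, a difference of 1.14 ± 0.16 (limma adjusted p = 2.56e-06). Slc6a13, the GABA transporter of the leptomeninges, ranged from 6.01 to 8.39 (median 7.46), against 6.21 to 6.75 (median 6.37), a difference of 0.94 ± 0.17 (limma adjusted p = 5.70e-05). Its lowest entorhinal array, BDNF array 3, was below every hippocampal array. Igf2, a growth factor made in meninges and choroid plexus, ranged from 8.27 to 9.76 (median 9.16), against 7.84 to 9.40 (median 8.37), and differed by 0.67 ± 0.15 (limma adjusted p = 0.000587), while its dim second probe set gave 0.20. Igfbp2, which binds insulin-like growth factors, ranged from 7.65 to 9.06 (median 8.35), against 7.28 to 8.61 (median 7.69), and differed by 0.60 ± 0.11 (limma adjusted p = 6.41e-05). For Igf2 and Igfbp2 the highest hippocampal value was that of sham array 1, the array with choroid plexus genes. Without it the differences were 0.74 and 0.66.

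The fibrillar collagens did not move as a block: of 10 tested, 3 were higher, 3 were lower and 4 did not pass. The higher ones were the chains of type I and type III collagen, the main fibres of fibrous tissue. Col1a2 ranged from 7.97 to 9.65 (median 8.98) on the entorhinal arrays, against 6.51 to 7.96 (median 7.36) on the hippocampal arrays, with no overlap and a difference of 1.49 ± 0.16 (limma adjusted p = 7.03e-08). Its 2 other probe sets gave 1.01 and, for a dim one, 0.06. Col3a1 ranged from 7.0 to 8.41 (median 7.75), against 5.47 to 7.45 (median 6.47), a difference of 1.20 ± 0.19 (limma adjusted p = 1.44e-05), and its dim second probe set gave 0.44. Col1a1, the partner chain of Col1a2, ranged from 5.11 to 6.61 (median 6.13), against 5.15 to 5.85 (median 5.47), a difference of 0.51 ± 0.11 (limma adjusted p = 0.000506), and its other probe set gave 0.16.

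The lower fibrillar chains belong to the minor type V and XI collagens, which regulate fibril assembly. Col11a1 ranged from 4.54 to 5.46 (median 4.74) on the entorhinal arrays, against 5.15 to 6.75 (median 6.09) on the hippocampal arrays, a difference of −1.07 ± 0.18 (limma adjusted p = 4.24e-05), and its dim second probe set gave −1.26. Col11a2 ranged from 5.08 to 5.62 (median 5.40), against 5.59 to 6.45 (median 5.90), with overlapping ends and a difference of −0.51 ± 0.08 (limma adjusted p = 1.14e-05). Col5a3 ranged from 4.0 to 4.96 (median 4.81), against 4.88 to 5.34 (median 5.08), a difference of −0.37 ± 0.09 (limma adjusted p = 0.00185), but a dim second probe set gave 0.02. Col5a1, Col5a2, Col2a1 and Col27a1 did not pass, with differences between −0.10 and 0.13. Of the other probe sets of these 4 genes, 1 of Col5a1 gave 0.55 (limma adjusted p = 0.00407) and that of Col5a2 gave −0.26 (limma adjusted p = 0.0366).

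Among type VI collagens, which form beaded filaments around cells, 2 of 4 tested genes were higher. Col6a2 ranged from 7.99 to 9.19 (median 8.59) in entorhinal cortex, against 7.08 to 7.85 (median 7.64) in hippocampus, with no overlap and a difference of 0.96 ± 0.12 (limma adjusted p = 4.81e-07), and its other probe set gave 0.52. Col6a3 ranged from 6.09 to 6.92 (median 6.48), against 5.91 to 6.38 (median 6.16), a difference of 0.37 ± 0.08 (limma adjusted p = 0.000463). Col6a1, whose chain joins Col6a2 and Col6a3 in one molecule, gave −0.15 ± 0.16 (limma adjusted p = 0.443). The network collagens, all 3 of them, were higher. Col8a1, found in the wall of vessels and in corneal membranes, ranged from 5.77 to 7.10 (median 6.43), against 5.23 to 6.94 (median 5.51), a difference of 0.91 ± 0.15 (limma adjusted p = 2.30e-05), while its other probe sets gave 0.33 and 0.08. Its partner Col8a2 ranged from 4.77 to 7.18 (median 5.88), against 4.63 to 7.59 (median 5.05), a difference of 0.66 ± 0.26 (limma adjusted p = 0.0359). Col10a1 ranged from 5.05 to 5.54 (median 5.32), against 4.90 to 5.17 (median 5.07), a difference of 0.27 ± 0.05 (limma adjusted p = 0.000329).

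The Col8a2 call depended on single arrays. It was lost on leaving out 1 of 6 entorhinal arrays (sham 1 and 2, BDNF 1 and 4, transgenic GFP 1, non-transgenic GFP 2) or 1 of 5 hippocampal arrays (sham 2 and 3, transgenic GFP 2, non-transgenic GFP 1 and 2), with adjusted p up to 0.102. Leaving out hippocampal sham array 1, where Col8a2 stood at 7.59, gave 0.88 (limma adjusted p = 0.000477). With the choroid plexus mean of each array as a covariate the difference of Col8a2 was 1.17, more than 1.5 times the value without it. That mean was 7.69 on hippocampal sham array 1 and 4.75 to 5.24 on all other arrays. Every fit with this covariate therefore leans on that same array.

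Of 6 type IV collagens, the mesh of vascular basement membranes, only Col4a2 passed. It ranged from 6.92 to 7.65 (median 7.21) in entorhinal cortex, against 7.28 to 7.68 (median 7.50) in hippocampus, a difference of −0.27 ± 0.07 (limma adjusted p = 0.00320). Col4a1 gave 0.01 ± 0.07 (limma adjusted p = 0.908) on its brightest probe set, and −0.21 (limma adjusted p = 0.0169) on the other. Col4a5 gave 0.33 ± 0.14 (limma adjusted p = 0.0562) and 0.04 on its other probe set, and Col4a3, Col4a4 and Col4a6 lay between −0.10 and 0.04. The multiplexins Col15a1 and Col18a1, whose ends yield restin and endostatin, are also parts of basement membranes, and both were lower. Col15a1 ranged from 4.58 to 5.40 (median 5.18), against 5.24 to 5.76 (median 5.39), a difference of −0.31 ± 0.07 (limma adjusted p = 0.000578). Col18a1 ranged from 5.78 to 6.66 (median 6.12), against 6.02 to 6.59 (median 6.31), a difference of −0.20 ± 0.08 (limma adjusted p = 0.0343), and its other probe set gave 0.04. The Col18a1 call was lost on leaving out 1 of 3 entorhinal arrays (sham 1, transgenic GFP 3, non-transgenic GFP 1) or 1 of 5 hippocampal arrays (sham 1, BDNF 4, transgenic GFP 1 and 2, non-transgenic GFP 1), with adjusted p up to 0.0956. It was also lost with the mean of its probe sets (−0.082), with renewed quantile normalization (−0.17), with the choroid plexus mean as a covariate (−0.17) and with replicate number as a block, with limma adjusted p up to 0.277.

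FACIT collagens attach to fibrils without forming them, and of 9 tested 4 were higher and 2 lower. Col9a2 ranged from 4.32 to 5.13 (median 4.85) on the entorhinal arrays, against 4.08 to 4.69 (median 4.31) on the hippocampal arrays, a difference of 0.47 ± 0.08 (limma adjusted p = 2.36e-05). Col12a1 ranged from 5.55 to 6.94 (median 6.31), against 5.27 to 5.99 (median 5.73), a difference of 0.44 ± 0.12 (limma adjusted p = 0.00339), while its 3 other probe sets gave 0.01 to 0.08. Col14a1 ranged from 4.62 to 5.34 (median 5.03), against 4.57 to 5.0 (median 4.82), a difference of 0.22 ± 0.07 (limma adjusted p = 0.0123), and its dim probe sets gave 0.03 and 0.04. With the choroid plexus mean as a covariate the Col14a1 difference was 0.21 and lost its call (limma adjusted p = 0.0503), and with the mean of its probe sets it was 0.096. Col12a1 and Col14a1 code for the collagens that coat type I fibrils. Col22a1, known at junctions of muscle and tendon, ranged from 4.76 to 6.34 (median 5.45), against 4.68 to 5.95 (median 4.98), a difference of 0.42 ± 0.16 (limma adjusted p = 0.0368), and its other probe sets gave 0.04 and 0.03. Its call was lost on leaving out any of 12 arrays, which were the entorhinal sham arrays 1 and 2, transgenic GFP arrays 1 and 4 and non-transgenic GFP array 2, and the hippocampal sham arrays 1 and 3, BDNF arrays 1 and 3, transgenic GFP arrays 3 and 4 and non-transgenic GFP array 2, with adjusted p up to 0.131. It was also lost with the mean of its probe sets (0.16), with the choroid plexus mean as a covariate, with replicate number as a block and without the 2 entorhinal arrays low in myelin genes (0.25), with limma adjusted p up to 0.172.

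The lower FACIT genes were Col9a3 and Col20a1. Col9a3, a partner of Col9a2 in cartilage collagen, ranged from 5.81 to 6.65 (median 6.15), against 6.55 to 7.95 (median 6.69), a difference of −0.65 ± 0.12 (limma adjusted p = 7.09e-05). Its highest hippocampal array was sham array 1, without which the difference was −0.55, and with the choroid plexus mean as a covariate it was −0.42. Its other probe sets gave −0.25 and, for a dim one, 0.05. Col20a1 ranged from 4.68 to 5.22 (median 5.03), against 5.07 to 5.43 (median 5.19), a difference of −0.21 ± 0.05 (limma adjusted p = 0.00145), and its 3 other probe sets gave −0.15 to 0.01. Col9a1, Col16a1 and Col19a1 lay between −0.01 and 0.05 and did not pass.

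The transmembrane collagens, which are anchored in the cell membrane and shed their outer part, split. Col23a1 ranged from 7.30 to 8.39 (median 8.06) on the entorhinal arrays, against 5.25 to 6.81 (median 6.52) on the hippocampal arrays, with no overlap and a difference of 1.56 ± 0.15 (limma adjusted p = 8.83e-09), and its 2 other probe sets gave 1.08 and 1.66. Col13a1 ranged from 4.59 to 5.65 (median 5.11), against 4.66 to 4.98 (median 4.84), a difference of 0.29 ± 0.10 (limma adjusted p = 0.0183). The Col13a1 call was lost with array weights (0.23, limma adjusted p = 0.0863) and with the choroid plexus mean as a covariate (0.28). Col25a1, the neuronal collagen first found in amyloid plaques of Alzheimer's disease, ranged from 7.60 to 8.98 (median 8.15), against 8.68 to 9.32 (median 9.03), a difference of −0.78 ± 0.10 (limma adjusted p = 8.02e-07). Its other probe set gave −0.16 (limma adjusted p = 0.0133). Of the 2 genes outside these families, Col26a1 gave 0.13 and Col7a1, the anchoring fibril collagen of skin, gave −0.02, and neither passed.

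Several of these genes neighbour each other or related genes on a chromosome, and their differences are set side by side. Dcn and Lum are adjacent on chromosome 10 in the RefSeq gene order, and Dcn differed by 0.74 where Lum differed by −1.11. On chromosome 13, Ogn (0.94) and the adjacent proteoglycan gene Omd (osteomodulin, 1.39 ± 0.17, limma adjusted p = 6.40e-07) were both higher, while Ecm2 of the same cluster was lower, with −0.36 ± 0.11 (limma adjusted p = 0.00778). On chromosome 1, Fmod (2.63) lies beside Prelp and Optc, which gave −0.27 ± 0.12 (limma adjusted p = 0.0643) and 0.14 ± 0.08 (limma adjusted p = 0.147). Col3a1 (1.20) lies beside Col5a2 (−0.01) on chromosome 1, and Col6a2 (0.96) beside Col6a1 (−0.15) on chromosome 10. For Col4a1 and Col4a2, whose windows share the capitals printed above, the brightest probe sets gave 0.01 and −0.27, and the other Col4a1 probe set gave −0.21. Col4a3 and Col4a4, adjacent on chromosome 1, gave 0.04 and −0.10, and Col4a5 and Col4a6 on the X chromosome gave 0.33 and 0.04, none of which passed. The differences between neighbours were not themselves tested.

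**Figure D3:**
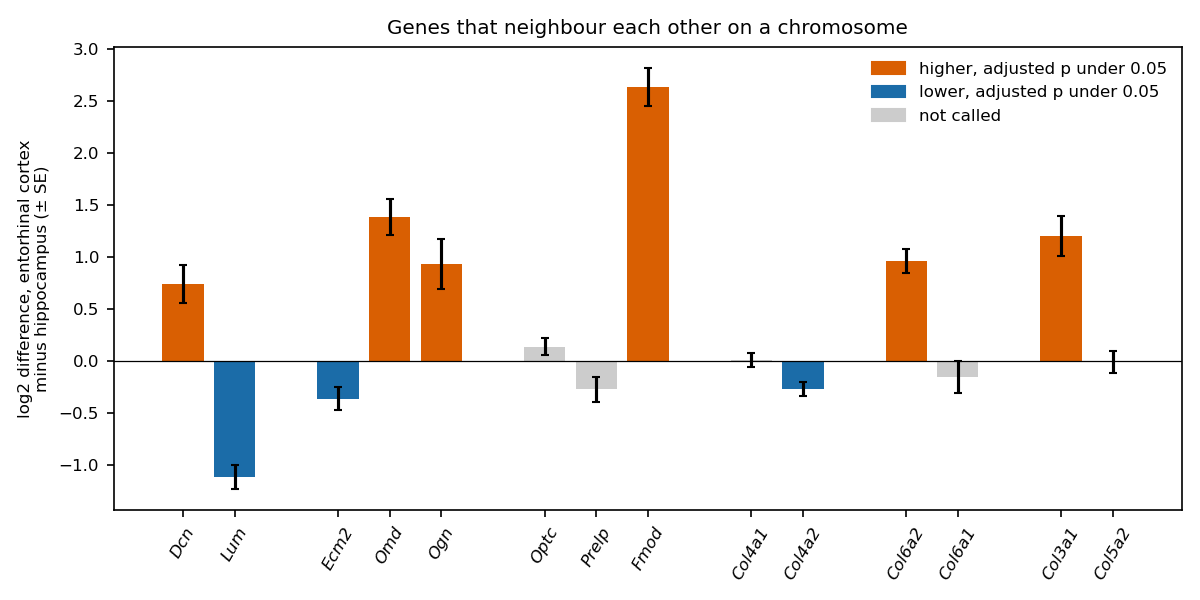
Log2 difference between entorhinal cortex and hippocampus (y axis, bars from 0, with the standard error) for genes in their chromosomal order within 6 clusters (x axis, clusters apart), coloured by the adjusted p; genes below the level filter are left out. Dcn stands at 0.74 beside Lum at −1.11, and Fmod stands at 2.63 beside Optc and Prelp, which were not called.

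Other genes of the same biology were read from lists, whose counts are to be read against all genes tested, 20.6% higher and 31.3% lower. Of 17 tested markers of meningeal fibroblasts outside the set, 14 were higher in entorhinal cortex and 1, Twist1, was lower (−0.95 ± 0.18). Among those with the smallest p were Slc47a1 (2.54 ± 0.20), a transporter, and Foxc2 (1.69 ± 0.13), a transcription factor of meningeal development. Their mean ranged from 6.99 to 8.05 on the entorhinal arrays, against 6.46 to 6.93 on the hippocampal arrays. The list was thus higher in entorhinal cortex, as were Fmod, Mgp, Dcn and the type I and III collagens. Lum was lower (−1.11), and Bgn did not pass the test. The part of the meningeal list in the region differences of these genes was not tested. Endothelial markers were higher in 6 of 11 and lower in 1, mural cell markers were higher in 1 of 11, and all 12 myelin markers were lower, with a median of −1.37.

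For the next lists too, the counts stand against 51.8% of all genes tested that passed in either direction. Genes that process collagen chains were mostly lower in entorhinal cortex. Of 25 tested, 3 were higher and 16 lower, with a median of −0.25, where the median over all genes tested was −0.03. Pcolce, which speeds the removal of the procollagen end, was higher by 1.18 ± 0.22, and its relative Pcolce2 gave −1.04 ± 0.16. The lysyl oxidase Loxl1, which cross-links elastin and collagen, gave −1.29 ± 0.11, the lysyl hydroxylase Plod2 gave −0.77 ± 0.08, and the procollagen peptidase gene Adamts3 gave −0.59 ± 0.07. Of 13 basement membrane genes 5 were higher and 2 lower, among them Lama3 (1.15 ± 0.08) and Lamb1 (−0.48 ± 0.05). Of 8 collagen receptor genes 4 were higher and 2 lower, and the collagen uptake receptor Mrc2 gave 0.71 ± 0.09. Of 9 genes of the insulin-like growth factor system 5 were higher and 2 lower, with Igfbp4 at −1.17 ± 0.06 and Igf1r, the signalling receptor of Igf2, at 0.38 ± 0.05. Of 6 other small leucine-rich proteoglycan genes only Omd and Ecm2 passed.

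The 9 named genes also varied among arrays of one group more than genes did in general. The median standard deviation within a group was 0.44 for them in entorhinal cortex and 0.33 in hippocampus, against 0.14 and 0.13 for all genes tested. Over the 48 genes it was 0.30 in entorhinal cortex and 0.18 in hippocampus. Entorhinal BDNF array 3 had the lowest value of its region for 8 of the 9 and for 17 of the 48 genes, but the highest for 8 of the 48. Entorhinal sham array 2 had the highest for 7 of the 9 and for 15 of the 48. In hippocampus, transgenic GFP array 4 was the lowest for 6 of the 9 and for 15 of the 48. For how many of all genes tested these arrays were the extreme was not computed, so the counts may not be particular to this set. The mean of the 9 genes was 7.87 on entorhinal BDNF array 3, 8.0 on entorhinal transgenic GFP array 3 and 9.25 on entorhinal sham array 2. The mean of 18 measured meningeal markers was 7.01, 6.99 and 8.05 on the same arrays. Xist was 5.58 and 5.42 on the low pair and 10.77 on the sham array, but it was also low (5.45) on entorhinal transgenic GFP array 1, where the 9 genes averaged 8.82 and the markers 7.67.

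**Figure D4:**
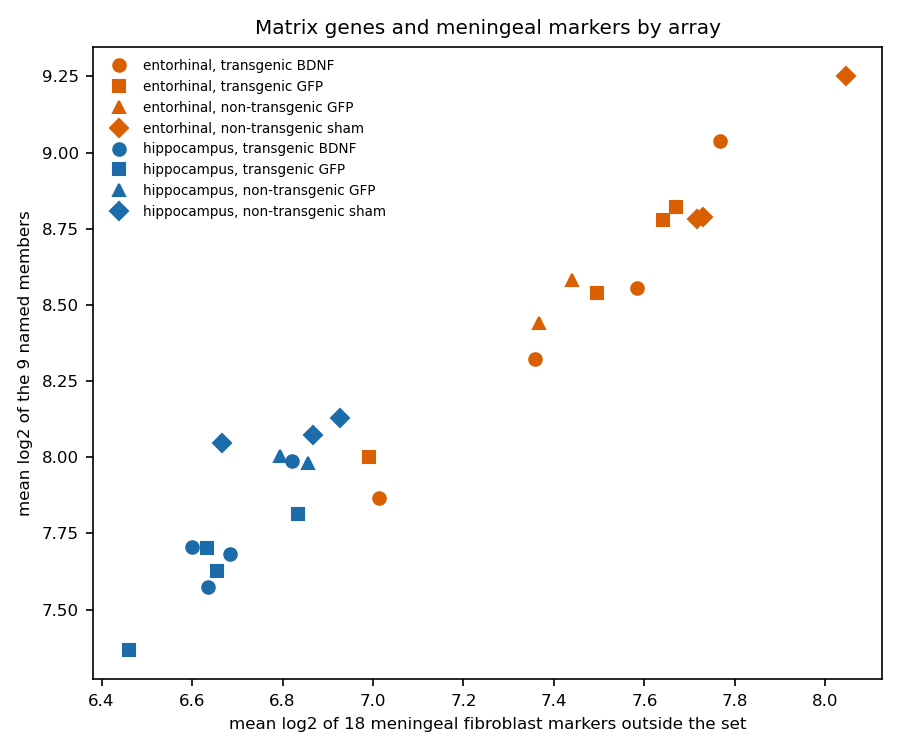
Mean log2 level of the 9 named genes (y axis) against the mean of 18 meningeal fibroblast markers outside the set (x axis) on each of the 26 arrays, with entorhinal arrays in orange, hippocampal arrays in blue and a symbol for each condition. Entorhinal arrays run from 7.87 to 9.25 and hippocampal arrays from 7.37 to 8.13 on the y axis, and within the entorhinal arrays both means are low on the same pair and high on the same sham array.

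Hippocampal sham array 1 read several matrix genes high together with choroid plexus genes. On this array 11 of the 48 genes lay above all 12 other hippocampal arrays, where 8.30% of all genes tested did. Col8a2 stood at 7.59, against 4.63 to 5.26 on the others. Col8a1 stood at 6.94, against 5.23 to 5.78, and Col9a3 at 7.95, against 6.55 to 6.98. Igf2 stood at 9.40, against 7.84 to 8.80, and Igfbp2 at 8.61, against 7.28 to 7.98. The remaining 6 exceeded the other arrays by 0.17 or less. Fmod (6.73) and Dcn (9.55) were among the lower values of the region on this array, and its meningeal marker mean was 6.67. It enters the hippocampal comparisons with sham mice.

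**Figure D5:**
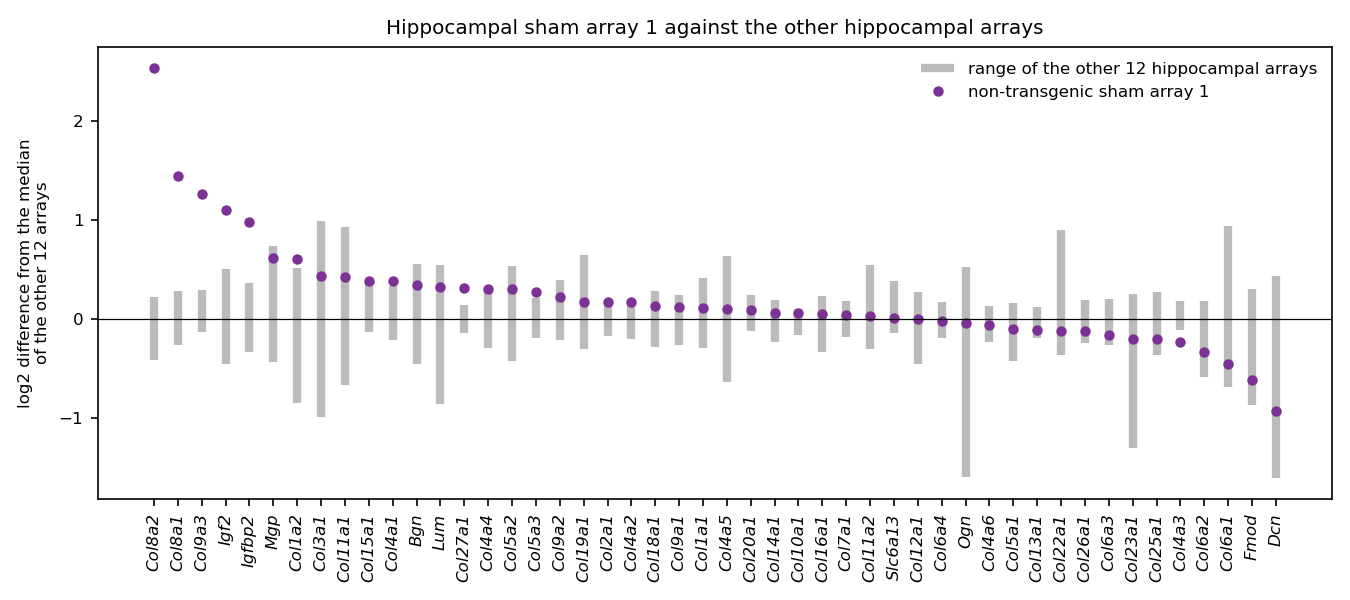
Log2 value on hippocampal sham array 1 (purple points) minus the median of the other 12 hippocampal arrays (y axis), for each of the 48 tested genes ordered by that difference (x axis), with the range of the other 12 arrays as grey bars. Col8a2, Col8a1, Col9a3, Igf2 and Igfbp2 stand above their bars by 0.60 or more, and Fmod and Dcn lie at the lower end.

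No gene of the set was called for BDNF. In transgenic mice, BDNF against GFP gave 0 called genes of 48 in entorhinal cortex and 0 in hippocampus by limma, where 0% of all genes were called in either region. At an unadjusted p under 0.05 there was 1 gene in entorhinal cortex, where 3.88% of all genes passed, and 7 in hippocampus, where 5.31% did. Col9a2 ranged from 4.45 to 4.91 on entorhinal BDNF arrays, against 4.74 to 5.13 on GFP arrays (−0.31 ± 0.14, limma adjusted p = 0.998). Col25a1, Col11a1 and Col5a2 came next in entorhinal cortex, with −0.40, 0.26 and 0.32 and overlapping arrays. With 1 array left out the value of Col11a1 went down to 0.11 and that of Col5a2 to 0.18. In hippocampus, Col1a1 was 5.21, 5.15, 5.34 and 5.30 with BDNF, against 5.85, 5.52, 5.60 and 5.39 with GFP, and the groups did not overlap, as was the case for 2.64% of all genes. The difference was −0.34 ± 0.09 with a limma adjusted p of 0.901. Col7a1 ranged from 6.35 to 6.44 with BDNF, against 6.07 to 6.25 with GFP (0.23 ± 0.07, limma adjusted p = 0.901). Mgp (0.29 ± 0.10) and Col16a1 (−0.28 ± 0.10) had the same adjusted p.

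Whether BDNF acted differently in the regions was tested with an interaction term, which called 0 of 48 genes and 0% of all genes by limma, with 2 of 48 and 4.03% of all genes at an unadjusted p under 0.05. Col25a1 gave −0.40 for BDNF against GFP in entorhinal cortex and 0.25 in hippocampus, a difference of −0.65 ± 0.24 (limma adjusted p = 0.996). Its values were 7.60, 7.84, 7.97 and 8.11 on the entorhinal BDNF arrays, against 8.0, 8.42, 8.57 and 8.15 on the entorhinal GFP arrays. In hippocampus they were 9.19, 9.14, 9.32 and 9.07 with BDNF, against 9.14, 8.94, 8.68 and 8.98 with GFP. Arrays overlapped in both regions. Col7a1 (−0.30), Col16a1 (0.34, and as low as 0.16 with 1 array left out) and Col12a1 (−0.52) had the next smallest p.

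Mgp was the single gene of the set called for the genotype, in hippocampus. Transgenic GFP mice had 7.61, 7.31, 7.56 and 7.29, against 7.91 and 7.88 in non-transgenic GFP mice and 8.34, 8.40 and 8.47 in sham mice. All 4 transgenic GFP arrays lay below all 5 non-transgenic arrays, as they did or the reverse for 0.917% of all genes. The 4 transgenic BDNF arrays, which are not in this comparison, ranged from 7.50 to 7.98 and overlapped the non-transgenic GFP arrays. The difference from the 5 non-transgenic arrays together was −0.75 ± 0.10 (limma adjusted p = 0.0119), where 0.0402% of all genes were called. The labels name no virus for the 3 sham mice, so this comparison mixes genotype with virus: against the 2 non-transgenic GFP arrays alone the difference was −0.45 ± 0.13 (limma adjusted p = 0.988). The call was lost on leaving out transgenic GFP array 4 (adjusted p = 0.0542), sham array 1 (0.0532), sham array 2 (0.0808) or sham array 3 (0.0912). It was also lost with Xist as a covariate, where the difference was −0.67 (limma adjusted p = 0.0779), with replicate number as a block (−0.74, limma adjusted p = 0.145) and with all 26 arrays in 1 fit, where the difference is the same (limma adjusted p = 0.971). Xist was low on transgenic GFP arrays 2 and 4, which had the lowest Mgp values. In entorhinal cortex the difference of Mgp was −0.49 ± 0.33 (limma adjusted p = 0.935), and its difference from the hippocampal value was 0.26 ± 0.37, which did not pass the test.

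No other gene of the set passed the test for the genotype. In hippocampus, Igfbp2 was 7.55, 7.69, 7.70 and 7.28 in transgenic GFP mice, against 7.98 and 7.97 in non-transgenic GFP and 8.61, 7.82 and 7.95 in sham mice. The transgenic GFP arrays lay below all of these non-transgenic arrays, and the difference was −0.51 ± 0.14 (limma adjusted p = 0.662). Ogn ranged from 5.98 to 7.49 in transgenic GFP mice, against 7.45 to 8.06 in non-transgenic mice (−1.05 ± 0.37, limma adjusted p = 0.991), and Col1a2 gave −0.44 ± 0.21, or −0.20 at the least with 1 array left out. In entorhinal cortex 0 of 48 genes were called by limma, where 0.0134% of all genes were, with 2 of 48 and 4.76% of all genes at an unadjusted p under 0.05. Col2a1 ranged from 4.04 to 4.57 in transgenic GFP mice, against 4.50 to 4.81 in non-transgenic mice (−0.31 ± 0.10, limma adjusted p = 0.935). Col15a1 (−0.29), Igfbp2 (−0.40) and Col4a1 (−0.20) came next. With 1 array left out these 4 differences shrank to as little as −0.20 for Col2a1, −0.15 for Col15a1, −0.24 for Igfbp2 and −0.11 for Col4a1. Against non-transgenic GFP arrays alone, 0 of 48 genes were called in either region by limma, where 0.0134% of all genes were called in entorhinal cortex and 0.00669% in hippocampus, and at an unadjusted p under 0.05 there were 0 genes in entorhinal cortex (2.50% of all genes) and 3 in hippocampus (4.41% of all genes). The genotype difference between regions called 0 of 48 and 0% of all genes, with Col2a1 (−0.29 ± 0.13) the single gene at an unadjusted p under 0.05, where 2.01% of all genes passed.

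Virus against sham gave the other call for Mgp. In both regions the vector arrays include those of transgenic mice, while all sham mice were non-transgenic. Vector against sham therefore mixes virus with genotype. On the 10 hippocampal arrays with a vector Mgp ranged from 7.29 to 7.98 (median 7.65), against 8.34, 8.40 and 8.47 on the 3 sham arrays. Every vector array lay below every sham array, as was so in either direction for 1.95% of all genes. The difference was −0.75 ± 0.10 (limma adjusted p = 0.00548), where 0.0937% of all genes were called, and it was lost on leaving out sham array 3 (−0.72, adjusted p = 0.0977). It was also lost with replicate number as a block (−0.73, limma adjusted p = 0.0606) and with all 26 arrays in 1 fit (limma adjusted p = 0.348). It shares both the sham arrays and the transgenic GFP arrays with the genotype comparison, on the same sides, so the calls are not independent. Within non-transgenic mice, the 2 GFP arrays differed from the 3 sham arrays by −0.51 ± 0.13 (limma adjusted p = 0.373), and 0 of 48 genes were called, where 0.0335% of all genes were. In that comparison 10 of the 48 genes did not overlap, where 29.0% of all genes did not. In entorhinal cortex, where the virus was delivered, Mgp was 9.12, 8.88, 8.22 and 10.20 with BDNF, 8.95, 9.09, 8.37 and 8.51 in transgenic GFP mice and 8.44 and 8.58 in non-transgenic GFP mice, against 9.72, 10.21 and 9.16 in sham mice. BDNF array 4 overlapped the sham arrays there, and the difference was −0.86 ± 0.33 (limma adjusted p = 0.539). The interaction of virus and region was −0.11 ± 0.36 for Mgp (limma adjusted p = 0.982).

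In entorhinal cortex, vector against sham, which mixes virus with genotype here too, passed the test for none of these genes. Of the 48 genes 0 were called by limma, where 0.0602% of all genes were, but 8 had an unadjusted p under 0.05, all of them lower, where 3.54% of all genes were lower at that p. These were Igfbp2 (−0.55 ± 0.19), Col2a1 (−0.29 ± 0.10), Col4a1 (−0.29 ± 0.11), Mgp, Col5a2 (−0.43 ± 0.17), Col12a1 (−0.53 ± 0.23), Ogn (−0.76 ± 0.35) and Col15a1 (−0.27 ± 0.12), with limma adjusted p between 0.539 and 0.587. With 1 array left out the Col4a1 difference was as small as −0.18. Igfbp2 ranged from 7.65 to 8.65 on the 10 vector arrays, against 8.57, 9.06 and 8.62 on the sham arrays, and 37 of the 48 differences were below 0, where 44.8% of all genes were. The mean of the meningeal markers ranged from 6.99 to 7.77 on the vector arrays, against 7.72 to 8.05 on the sham arrays. The 11 tested endothelial markers gave differences between −0.32 and −0.05 (median −0.15) and the 11 mural cell markers had a median of −0.19, none of them called by limma. The part of these cell types in the differences was not tested. The mean of lymphocyte and MHC class II genes was 6.20 to 10.50 on the vector arrays, against 6.0 to 6.24 on the sham arrays.

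In hippocampus, 6 of 48 genes had an unadjusted p under 0.05 for vector against sham, where 9.58% of all genes did. Igfbp2 ranged from 7.28 to 7.98 on the vector arrays, against 8.61, 7.82 and 7.95 on the sham arrays (−0.53 ± 0.14, limma adjusted p = 0.259), and Igf2 from 7.84 to 8.80, against 9.40, 8.51 and 8.56 (−0.56 ± 0.19, limma adjusted p = 0.378). Without sham array 1 these differences were −0.29 and −0.27. Col15a1 gave −0.29 ± 0.09, Col1a1 −0.22 ± 0.08 and Col25a1 0.22 ± 0.09. Mgp on sham array 1 (8.34) was the lowest of the 3, and with the choroid plexus mean as a covariate its difference was −0.78. Lymphocyte and MHC class II genes averaged 5.70 to 10.11 on the vector arrays, against 5.58 to 5.75 on the sham arrays, and their part in the Mgp difference was not tested. In the GFP against sham comparison of non-transgenic mice, entorhinal cortex had 0 of 48 genes called by limma, where 0.0201% of all genes were, and 4 at an unadjusted p under 0.05, where 2.95% of all genes passed. Col5a2 was 5.83 and 5.99 with GFP, against 6.34, 6.77 and 6.77 in sham mice (−0.72 ± 0.24), and Col7a1 (0.32 ± 0.12), Mgp (−1.19 ± 0.46) and Col4a1 (−0.33 ± 0.15) came next.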

How the data were processed

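Expression was measured on 26 Affymetrix arrays, 13 of each region. The authors deposited 1 table of log2 values for 45101 probe sets, which the submitters' processing notes credit to RMA, a method that subtracts background, gives all arrays the same distribution and merges the probes of a set. The notes give no version. Values ran from 2.19 to 13.99, with array medians of 5.51 to 5.58, and RMA would hide a change shared by most genes and compresses differences of dim probe sets. The annotation of the platform gave 34958 probe sets a single gene symbol.

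Each gene was represented by its single-symbol probe set with the highest mean. Genes whose mean reached the 30th percentile over probe sets (4.33) were tested 2-sided on the log2 scale by lmFit and eBayes of limma 3.58.1, run in R 4.3.3, with Benjamini-Hochberg adjustment over 14941 genes. Comparisons within a region used its 13 arrays and 4 groups in 1 fit, and region and interaction comparisons used all 26 arrays and 8 groups. Genes outside the set are named by smallest p within their list. The members, lists and tests were chosen with earlier results of these data known. The number of arrays limits the precision. Replicate numbers did not pair arrays: deviations from group means correlated above 0.1 in 3 of 13 same-numbered pairs between regions. Both pairs of the non-transgenic GFP group are among these, and in a group of 2 arrays their correlations are equal by construction. Region and interaction fits treated the 26 arrays as independent, although arrays of both regions may come from the same mice. Alternatives were other filters, probe sets, normalizations and fits, covariates and leaving out each array.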

Additional observations from a re-analysis of the deposited data

Results flagged for a closer look

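Among groups of 4 arrays, 1 value stood far from the others: Bgn (biglycan) was 7.23 on hippocampal BDNF array 3, against 7.66 to 7.69 on the other 3 arrays of that group. The gap took up 0.943 of the range of the group. It was the single such value in 68 groups tested over 17 genes. Chance alone flags about 1 group in 20, so that 1 in 68 is fewer than chance would give.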

How the results depend on the processing

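Over the 14 counts of called genes, 407 of 417 values under alternatives stayed within 1.5 times the count and 10 did not, all of them for Mgp in hippocampus. Most of the 14 counts were 0 to begin with, and a count that stayed at 0 is among the 407. That total therefore says little about the few counts above 0. The transgenic against non-transgenic count was 0 with Xist as a covariate, and 0 with all 26 arrays in 1 fit, as was the vector against sham count. With the replicate block, replicate number entered as a block although the numbers did not pair the arrays, both counts were 0, and the region count was 30. Leaving out 1 array in turn gave 0 to 1 for both counts and 28 to 33 for the 31 genes that differed between regions. That region count was 21 with the filter at the 50th percentile, where fewer genes are tested and none of the 31 that was still tested lost its call. It was 27 with the choroid plexus mean as a covariate. The shares of all genes called under these alternatives are not given here, so these counts stand without a background. Of 2702 values for single genes, 2632 kept direction and side of the threshold, 66 lost their call and 4 reversed: on another probe set, Col18a1 gave 0.035, Col20a1 0.014, Col5a3 0.024 and Col9a3 0.045, and the cause was not tested. The differences of Mgp stayed between −0.83 and −0.69 (genotype) and between −0.79 and −0.71 (vector) with 1 array left out. Dim probe sets, groups of 2 and 3 arrays and the shared sham and transgenic GFP arrays limit these comparisons.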
